A study of Homo sapiens with 9 samples.

Results

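The genes described here are 10 members of the S100A family from the cluster on the long arm of chromosome 1: S100A2, S100A4, S100A6, S100A7, S100A8, S100A9, S100A10, S100A11, S100A14 and S100A16. They were taken by gene name from a deposited table of 58735 genes, and each name matched 1 gene. Of the 10, 9 passed the filter on low counts. S100A7 did not, with 1 count in all 9 libraries together.

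The cells were OVCAR3, an established human line of high-grade ovarian carcinoma, grown for 72 h in RPMI 1640 medium with 10% fetal bovine serum and 0.01 mg/ml bovine insulin. All 9 libraries came from this line and carried a short hairpin RNA (shRNA), which the cell turns into a guide that lowers matching mRNAs. The control hairpin was a scramble sequence (genotype given as WT), and the others, numbered 76 and 78 and called sh76 and sh78 here, were directed against GPX3, which encodes the secreted antioxidant enzyme glutathione peroxidase 3. Each group had 3 libraries, numbered 1 to 3. Whether the 3 libraries of a group came from separate transductions is not given in the sources used here, so the p-values measure only the spread between these samples, which may be technical.

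S100 proteins are small calcium-binding proteins of 2 EF-hand motifs each that mostly work as dimers. On binding calcium they expose a surface that grips partner proteins such as annexins, myosin heavy chains and p53. Some are also secreted and act as alarm signals on surface receptors. Several family members are abundant in carcinomas of epithelial origin, and their genes lie beside those of the cornified cell envelope in the epidermal differentiation complex.

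The targeted gene was read first. GPX3 had 173, 109 and 117 CPM (counts scaled to library size with TMM factors) in scramble libraries 1 to 3, 56.8, 55.2 and 55.5 CPM with sh76, and 35.3, 28.4 and 28.3 CPM with sh78. The highest value with a GPX3 hairpin was thus below the lowest control value. Total counts ran from 14652965 to 21327562 per library. All 12 epithelial markers of ovarian carcinoma that were examined, PAX8, WT1 and MUC16 among them, were at 1 FPKM or more in all 9 libraries. Of 10 neutrophil and monocyte markers, MPO, FCGR3B and FCN1 had 0 counts in every library. CD14 alone reached 1 FPKM in any library, at 0.338 to 1.09 FPKM over the 9. ELANE had at most 0.559 and each other marker at most 0.182 FPKM. The summed level of the list was 0.513 to 0.970 FPKM with scramble, 1.04 to 1.39 with sh76 and 1.19 to 1.26 with sh78. Of 9 fibroblast markers, COL1A1 alone reached 1 FPKM in any library. In bulk RNA, fewer cells of a type and less RNA per cell cannot be told apart.

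The sequence just upstream of the transcription start is shown for 4 members, because they stand for both patterns found below: S100A9 and S100A2 were the members with the highest fold changes with sh76 among those called, and S100A14 and S100A16 had the lowest fold changes with sh78. The bases are from RefSeq (GRCh38.p14), 5′ to 3′ on the gene's own strand, and were kept only where they lie outside annotated exons. Capitals mark a TATA box match in S100A9 and an AP-1 site match in S100A2, with the letters searched given below. The stretches lie at chr1:153357754-153357853 on the plus strand for S100A9, and on the minus strand at chr1:153565866-153565944 for S100A2, chr1:153616356-153616425 for S100A14 and chr1:153613146-153613237 for S100A16. S100A2 and S100A16 each have another start further downstream, and the stretch before that start is not shown.
S100A9: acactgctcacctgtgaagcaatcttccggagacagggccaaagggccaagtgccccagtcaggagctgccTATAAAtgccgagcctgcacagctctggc
S100A2: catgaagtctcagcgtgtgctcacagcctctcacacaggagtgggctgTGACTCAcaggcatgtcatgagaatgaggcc
S100A14: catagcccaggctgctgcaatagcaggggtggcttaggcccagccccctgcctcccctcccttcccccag
S100A16: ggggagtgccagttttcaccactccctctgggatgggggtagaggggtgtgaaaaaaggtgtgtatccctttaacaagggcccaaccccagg

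The 250 bases before each start were searched on both strands. The TATA box letters TATAAA began 29 bases upstream of the S100A9 start. It also stood 28 bases before that of S100A7, 31 before that of S100A4 and 29 before 1 of the starts of S100A8. Among all 35116 promoters of that length, 10.7% held these letters. TGANTCA, the letters of an AP-1 site, was present in S100A2 alone of the 10 members, 52 bases before its upstream start, and in 6.57% of all promoters. The GC box letters GGGCGG, present in 42.6% of all promoters, was found upstream of S100A6, S100A9, S100A10, S100A11 and 1 start of S100A16. That start is the downstream one, which is not shown above, and the letters stood 45 bases before it. A match of letters is a description of the sequence only.

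The members spanned a wide range of levels. Per gene length, S100A6 was the highest in scramble cells at 307 ± 24.7 FPKM (SD, n = 3), above 99.5% of the 13709 protein-coding genes tested. S100A11 followed at 254 ± 13.2 FPKM and S100A10 at 120.04 ± 11.1 FPKM, and the libraries of these 3 genes did not overlap. S100A14 at 78.5 ± 21.9, S100A16 at 65.6 ± 6.50 and S100A4 at 63.6 ± 9.68 FPKM came next, and neighbours among these overlapped. S100A2 at 39.6 ± 4.01 and S100A9 at 16.2 ± 3.22 FPKM stood apart below them. S100A8 was at 0.939 ± 0.296 FPKM, above 18.8% of the protein-coding genes, and S100A7 was listed at 0. With sh76 the order of means changed for S100A2, which at 78.7 ± 14.5 FPKM ranked 4, where it had ranked 7 in the control cells. Its libraries overlapped those of S100A14, S100A16 and S100A4, which ranked 5, 6 and 7. It also ranked 4 with sh78, at 47.6 ± 8.09 FPKM, with libraries that overlapped those of S100A4, S100A14 and S100A16, which ranked 5, 6 and 7. The place of S100A2 among these was thus not resolved with either hairpin. With sh78, S100A6 and S100A11 lay at 228 ± 8.33 and 230.4 ± 26.1 FPKM and overlapped.

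**Figure D1:**
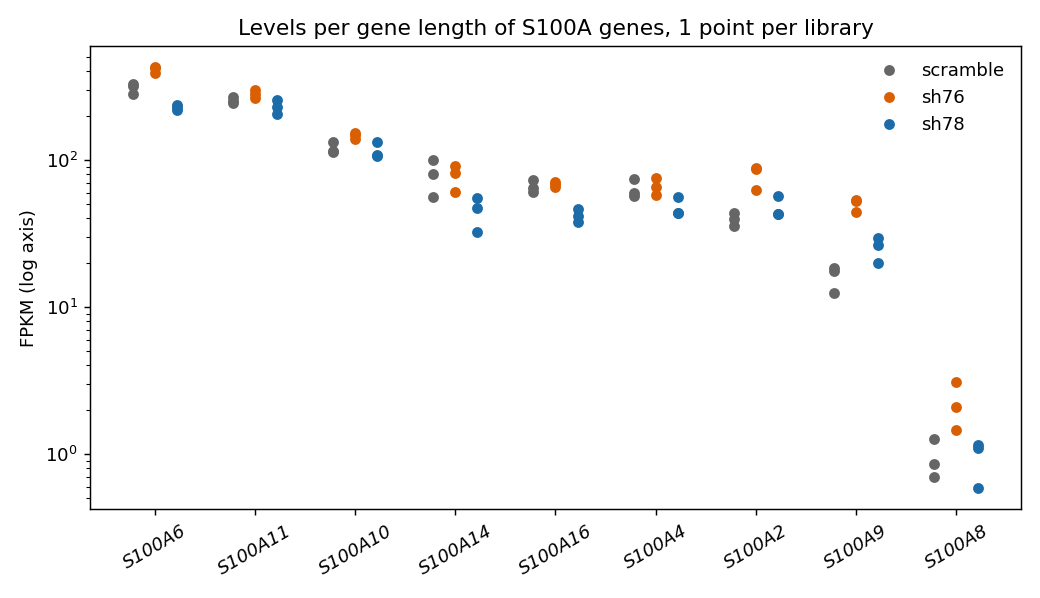
FPKM (log axis) of the 9 S100A genes that passed the count filter, 1 point per library, grouped by scramble, sh76 and sh78. The genes run from S100A6, at 307 FPKM in scramble cells, to S100A8, at 0.939 FPKM, and S100A7 is not drawn because it was listed at 0 in 8 libraries.

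Summed over the 10 members, the level was 885 to 1013 FPKM in the scramble libraries, 1154 to 1249 FPKM with sh76 and 719 to 843 FPKM with sh78. The 3 ranges did not overlap. S100A6 alone made up 32.5% of the sum with scramble, 34.9% with sh76 and 29.1% with sh78, so the sum mostly follows the highest members. The summed epithelial markers were 3235 to 3554 FPKM with scramble, 3087 to 3503 with sh76 and 2707 to 2988 with sh78. Their part in the S100A levels was not tested.

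S100A levels differed between the hairpins. With sh76, 3 of the 9 tested members rose (S100A2, S100A6 and S100A9) and 0 fell. With sh78, 0 rose and 2 fell (S100A6 and S100A16). Between the hairpins, 5 were lower with sh78 than with sh76 (S100A2, S100A6, S100A9, S100A10 and S100A16) and 0 were higher. Calls were made where the Benjamini-Hochberg value over 17023 genes, from edgeR's quasi-likelihood test, was below 0.05. Of all genes tested, 3.58% were called with sh76 (1.43% higher and 2.16% lower), 4.41% with sh78 (1.85% higher and 2.56% lower), and 3.7% between the hairpins (1.97% higher and 1.72% lower with sh78). At an unadjusted edgeR p under 0.05, 5 members were higher and 0 lower with sh76, 1 higher and 4 lower with sh78, and 0 higher and 9 lower with sh78 than with sh76. The share of all genes at that unadjusted p was not counted, so such counts have no baseline, here or for the lists below. DESeq2 called 3 higher and 0 lower with sh76, 1 higher and 2 lower with sh78, and 0 higher and 7 lower between the hairpins. Over all 17023 genes it called 335 higher and 524 lower, 437 and 541, and 459 and 397 in these comparisons. Both limma fits on FPKM gave 3 higher and 0 lower with sh76, 0 higher and 2 lower with sh78, and 0 higher and 4 lower between the hairpins. Over all genes the fit on log2(FPKM + 1) called 186 higher and 294 lower, 211 and 342, and 210 and 247. That on log2(FPKM + 0.1) called 158 and 265, 212 and 347, and 198 and 238.

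All 9 tested members had negative fold changes for sh78 against sh76, from −1.27 to −0.30 on the log2 scale, with a median of −0.73 beside 0.00029 over all genes. For each of the 9, all 3 sh78 libraries lay below all 3 sh76 libraries, which held in that direction for 10.9% of all genes. Against scramble the libraries were apart for 5 members with sh76, all higher, and with sh78 for 1 higher and 4 lower, where all genes gave 10.8% higher with sh76, and 10.2% higher and 11.2% lower with sh78. The median over the members against scramble was 0.30 with sh76 and −0.14 with sh78 (log2), where all genes had 0.0064 and 0.0063. These 2 comparisons share the scramble libraries. Without sh76 replicate 2, sh76 replicate 3 or sh78 replicate 3 the 5 members called between the hairpins became 3 in each case. Over the fits that left out 1 library, 273 to 780 of all genes were called between the hairpins. Without sh78 replicate 1 the 2 members called for sh78 against scramble became 4, where 531 of all genes were called.

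**Figure D2:**
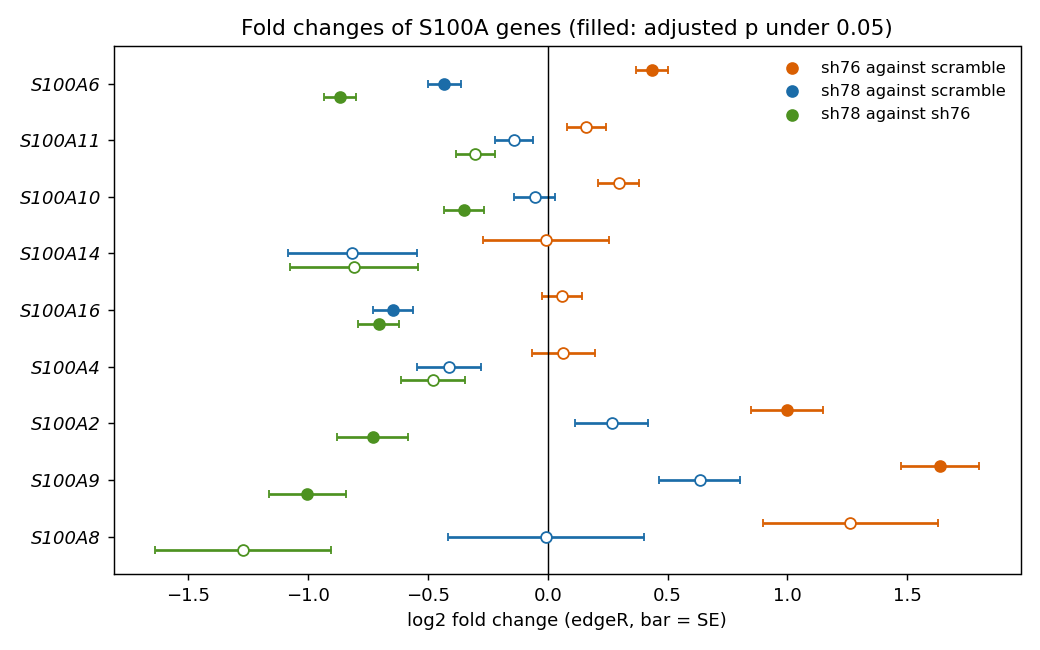
Log2 fold changes from edgeR with their SE for the 9 tested S100A genes in the 3 comparisons, with filled points for an adjusted p under 0.05. All 9 points for sh78 against sh76 lie left of 0, while those for sh76 against scramble run from −0.0085 to 1.64.

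Same-numbered libraries of different groups resembled each other across the transcriptome, and a fit with the library number as a block was therefore read beside the unblocked one. With the block, 5 members were higher with sh76 and 0 lower, beside 9.63% and 10.7% of all genes (20.4% in either direction). With sh78, 1 was higher and 5 lower, beside 9.79% and 10.1% (19.9% in either direction). Between the hairpins, 8 of 9 were lower with sh78 and 0 higher, beside 8.62% and 9.69% (18.3% in either direction). The exception was S100A10 (adjusted edgeR p 0.0507 with the block). Within each of the 3 numbers, the CPM ratio of sh78 to sh76 was below 1 for all 9 members.

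**Figure D3:**
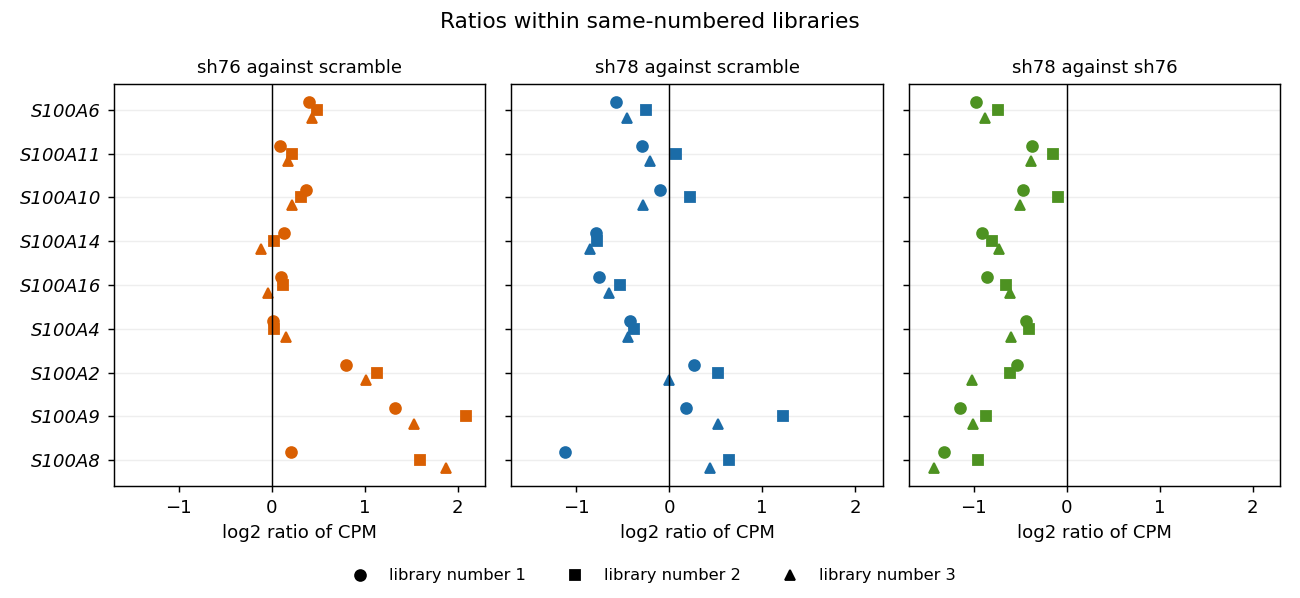
Log2 ratio of CPM within libraries of the same number (1, 2 and 3) for 9 S100A genes, in each of the 3 comparisons. For sh78 against sh76 all 27 points lie below 0, from −1.43 for S100A8 to −0.092 for S100A10.

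S100A9 and S100A8 encode the subunits of calprotectin, a secreted heterodimer that binds zinc and manganese and is best known from neutrophils and inflamed epithelium. S100A9 (ENSG00000163220, chromosome 1, 153357854 to 153361027, plus strand, GRCh38) had 10.3, 7.28 and 10.6 CPM in the scramble libraries, 25.7, 31.1 and 30.7 CPM with sh76, and 11.6, 17.0 and 15.3 CPM with sh78. The 3 groups did not overlap, and sh78 lay between the other two. S100A9 rose with sh76 by 1.64 in log2 units (SE 0.16, adjusted edgeR p 0.000129), which was 3.11 times the scramble level, and it had the highest fold change of the 9 members in that comparison. With sh78 the log2 fold change of 0.63 (SE 0.17) missed the threshold (adjusted edgeR p 0.0503). It passed with the block (adjusted edgeR p 0.00122), and without sh76 replicate 1 or sh78 replicate 1, with an adjusted p of 0.0186 at the lowest. The level with sh78 was 49.9% of that with sh76 (log2 fold change −1.002, SE 0.16, adjusted edgeR p 0.00347).

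S100A8 (ENSG00000143546, 153390032 to 153391188, minus strand) was near the limit of these libraries. It had 20, 12 and 15 counts with scramble, 24, 44 and 66 with sh76, and 11, 16 and 18 with sh78. All 3 sh76 libraries exceeded the other 6, in which the groups overlapped. The log2 fold change was 1.26 for sh76 (SE 0.37, adjusted edgeR p 0.0747) and −1.27 for sh78 against sh76 (SE 0.37, adjusted edgeR p 0.0768). Both were called with the block (adjusted edgeR p 0.00435 each). Both were also called without sh76 replicate 1, the lowest of its group (adjusted edgeR p 0.0441 and 0.0487). The summed neutrophil and monocyte markers given above were higher in all 6 GPX3 hairpin libraries than in the scramble libraries, and their part in the S100A8 and S100A9 levels was not tested. Since S100A8 lay above the count filter in the scramble libraries too, its presence among the tested genes did not depend on sh76. S100A9 exceeded S100A8 by 13.9 to 34.2 times in FPKM, in every library. S100A7 (psoriasin, 153457744 to 153460701, minus strand), an antimicrobial member, had 0 counts in 8 libraries and 1 in sh78 replicate 1. A count of 0 allows up to 3 counts in a library, which covers counting error only.

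**Figure D4:**
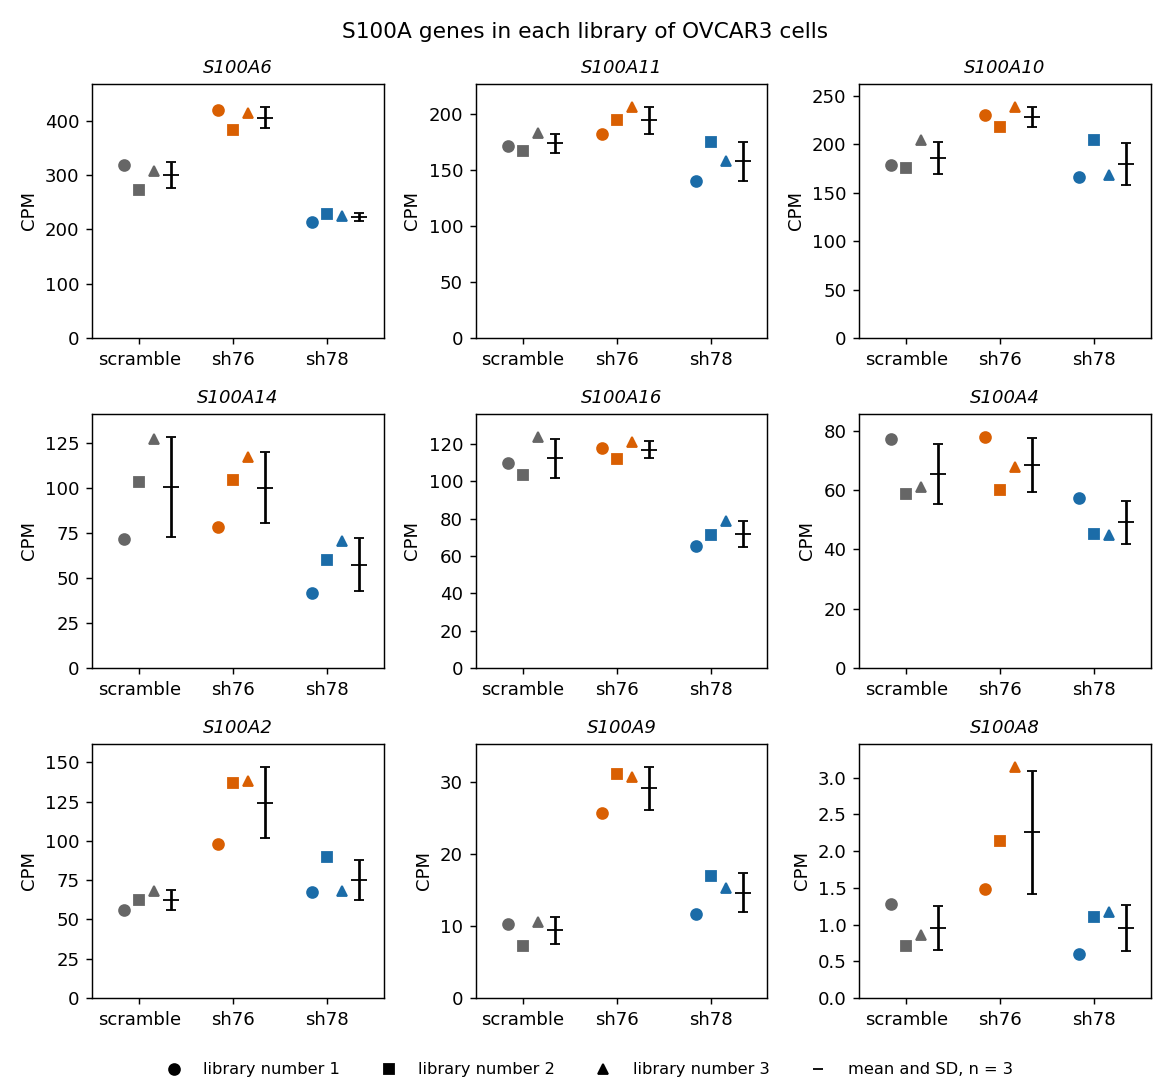
CPM of the 9 tested S100A genes in each library, with a symbol for the library number and the mean and SD (n = 3) beside each group. S100A9 lies between 25.7 and 31.1 CPM with sh76, above the 7.28 to 17.0 CPM of the other 6 libraries, and for S100A14 the library numbered 1 is the lowest of its group in all 3 groups.

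S100A2 (ENSG00000196754, 153561108 to 153567890, minus strand) is a largely nuclear member of basal epithelial cells that binds p53. It had 56.3, 62.4 and 68.4 CPM with scramble, 98.1, 137 and 138 CPM with sh76, and 67.7, 89.8 and 68.1 CPM with sh78. All sh76 libraries were above the other 6, while scramble and sh78 overlapped. S100A2 rose with sh76 by 0.997 on the log2 scale (SE 0.15, adjusted edgeR p 0.00617), a call kept in all 9 fits that left out 1 library. Its change with sh78 was 0.27 in log2 units (SE 0.15, adjusted edgeR p 0.42). It was lower with sh78 than with sh76 by −0.73 (SE 0.15, adjusted edgeR p 0.0254). This last call was lost without sh76 replicate 2 or 3 or sh78 replicate 1 or 3, with adjusted p-values up to 0.0977, and also when only the 2 hairpin groups were fitted (adjusted edgeR p 0.0553). It was held with the block (adjusted edgeR p 0.0027).

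S100A6 (calcyclin, ENSG00000197956, 153534599 to 153536244, minus strand), which binds annexins and the calcyclin-binding protein CACYBP, moved in opposite directions with the 2 hairpins. It had 319, 274 and 308 CPM with scramble, 420.5, 383 and 415 CPM with sh76, and 214, 229 and 224 CPM with sh78. The 3 groups did not overlap. S100A6 rose with sh76 by 0.44 (SE 0.067, adjusted edgeR p 0.00268) and fell with sh78 by 0.43 on the log2 scale (SE 0.068, adjusted edgeR p 0.0022). The level with sh78 was 54.8% of that with sh76 (log2 fold change −0.87, SE 0.068, adjusted edgeR p 1.52e-05). All 3 calls were kept in each fit that left out 1 library, and it was the single member called in all 3 comparisons. Of its exon bases, 2.37% overlap an antisense RNA that had at most 11 counts in a library.

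S100A10 and S100A11 bind annexins: S100A10 (p11) is the light chain of the annexin A2 heterotetramer and does not need calcium for it, and S100A11 binds annexin A1. S100A10 (ENSG00000197747, 151982915 to 151994390, minus strand) had 179, 175 and 205 CPM with scramble, 229.97, 218 and 238 CPM with sh76, and 166, 204 and 168 CPM with sh78. S100A11 (ENSG00000163191, 152032506 to 152047907, minus strand) had 171, 167 and 183 CPM with scramble, 182, 194 and 206 CPM with sh76, and 140.1, 175 and 158 CPM with sh78. In both genes the hairpin groups were apart, and the sh78 libraries overlapped the control.

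S100A10 was lower with sh78 than with sh76 (log2 fold change −0.35, SE 0.085, adjusted edgeR p 0.0366). The call was lost without any single sh76 library or sh78 replicate 1 or 3, with adjusted p-values up to 0.154, and in both limma fits on FPKM (0.0807 and 0.0815). With sh76 it had a log2 fold change of 0.30 (adjusted edgeR p 0.0738), called only without sh78 replicate 2 (adjusted p 0.0429) among those fits, and with sh78 −0.053. S100A11 had log2 fold changes of 0.16, −0.14 and −0.30 for sh76, sh78 and sh78 against sh76, and the last missed the threshold (adjusted edgeR p 0.0531). It passed without scramble replicate 1, sh76 replicate 1 or sh78 replicate 2, at 0.0287 for the lowest. With the block all 3 passed, with adjusted p-values of 0.0208, 0.0434 and 3.09e-05 in edgeR. S100A10 and S100A11 were also the most alike pair among the members, with a root mean square difference of 0.086 between their centred log2 CPM over the 9 libraries. This difference is not scaled to a gene's own spread, so genes that vary little lie close together. The root mean square of S100A10 itself was 0.19, beside 0.33 to 0.70 for the other members called in any comparison.

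S100A16 and S100A14 are neighbouring genes that are active in epithelial cells. S100A16 (ENSG00000188643, 153606886 to 153613145, minus strand) had 109.7, 103 and 124 CPM with scramble, 118, 112 and 121 CPM with sh76, and 65.1, 71.3 and 78.9 CPM with sh78. The sh78 libraries lay below the other 6, which overlapped. S100A16 fell with sh78 to 63.9% of the scramble level (log2 fold change −0.65, SE 0.085, adjusted edgeR p 0.000648) and was lower than with sh76 by −0.70 (SE 0.085, adjusted edgeR p 0.000419). Its change with sh76 was 0.059 (SE 0.083, adjusted edgeR p 0.785).

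S100A14 (ENSG00000189334, 153614255 to 153616986, minus strand) had 71.9, 103 and 127 CPM with scramble, 78.5, 105 and 117 CPM with sh76, and 41.7, 60.0 and 70.6 CPM with sh78. In each group the library numbered 1 was the lowest and that numbered 3 the highest, and all sh78 libraries lay below the other 6. Its log2 change with sh78 was −0.82 (SE 0.27, adjusted edgeR p 0.164) and against sh76 −0.81 (SE 0.27, adjusted edgeR p 0.18), so neither was called. Within the numbers 1, 2 and 3 the log2 ratio of sh78 to scramble was −0.79, −0.78 and −0.85. With the block the SE dropped to 0.054, and S100A14 was called lower with sh78 against scramble (adjusted edgeR p 1.06e-15) and against sh76 (adjusted edgeR p 8.38e-16). In the libraries numbered 2 and 3 alone, an alternative chosen after seeing the data, it was called in both comparisons without a block (adjusted edgeR p 0.000475 and 0.00126).

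S100A4 (metastasin, ENSG00000196154, 153543613 to 153550136, minus strand) binds the heavy chain of non-muscle myosin and is often read as a mesenchymal marker. It had 77.1, 58.6 and 60.9 CPM with scramble, 78.0, 59.8 and 67.9 CPM with sh76, and 57.5, 45.1 and 44.8 CPM with sh78. The library numbered 1 was the highest of its group in all 3 groups, opposite to S100A14, and the sh78 libraries lay below the other 6. Its log2 change with sh78 was −0.41 (SE 0.13, adjusted edgeR p 0.117), and −0.48 against sh76 (SE 0.13, adjusted edgeR p 0.0754). Both were called with the block (adjusted edgeR p 3.42e-07 and 1.08e-08). Without sh78 replicate 1 they were called too (adjusted edgeR p 0.0412 and 0.0319), and the second also without scramble replicate 1 (adjusted edgeR p 0.029). Its change with sh76 was 0.065 (SE 0.13, adjusted edgeR p 0.861).

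Genes with the most similar pattern were sought for the 5 members called in any comparison, among protein-coding genes with a mean of at least 1 FPKM over the 9 libraries, by the root mean square difference of centred log2 CPM over the 9 libraries. The nearest to S100A10 was ANXA2, which encodes annexin A2, its partner in the heterotetramer (difference 0.056). ANXA2 had log2 fold changes of 0.20, −0.070 and −0.27 in the 3 comparisons and was not called in any (adjusted edgeR p 0.212, 0.735 and 0.0897), except between the hairpins with the block (adjusted p 0.0158) or without scramble replicate 3 (adjusted p 0.0468). The nearest to S100A6 was LAMB3, a laminin chain, at 0.064, with log2 fold changes of 0.48, −0.46 and −0.94 (adjusted edgeR p 0.0021, 0.002 and 1.3e-05). CD109 and ADAR followed at 0.12 each.

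S100A9 was nearest to another family member, S100A3 (difference 0.28), and then to OR7D4 and KCNQ3. S100A3 was low, at 0.668 to 3.36 FPKM, with its highest values in the sh76 libraries and 3 other libraries below 1 FPKM. S100A2 was nearest to SCEL, which encodes sciellin of the cornified envelope (0.13), then to ISL1 and EGR1. S100A16 was nearest to PNP (0.071), KCNK15 (0.087) and IER5 (0.088). These distances describe the 9 libraries, are not scaled to a gene's own spread and carry no test.

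Of 11 other S100 genes, 4 passed the count filter. S100A3, which lies within the span of S100A4 but shares no exon base with it, had 10, 11 and 17 counts with scramble, 30, 67 and 35 with sh76, and 13, 20 and 19 with sh78. It rose with sh76 by 1.57 in log2 units (SE 0.37, adjusted edgeR p 0.0303). That call was lost without any single scramble library or sh76 replicate 2, with adjusted p-values up to 0.175. S100A5 had 10, 9 and 19 counts with scramble, 12, 15 and 16 with sh76, and 3, 5 and 3 with sh78, and was not called (adjusted edgeR p 0.0734 for sh78 against scramble). S100A13 and S100A1, which overlap each other on opposite strands in libraries that carry no strand, were not called in any comparison without the block. S100A3 with sh76 was thus the 1 call among the 4 genes, beside 1.43% of all genes called higher there. With the block, S100A3 and S100A13 were called higher with sh76 (9.63% of all genes), S100A5 lower with sh78 (10.1%), and S100A1, S100A3 and S100A5 lower with sh78 than with sh76 (8.62%). The median of the 4 genes for sh78 against sh76 was −0.70, beside 0.00029 over all genes, and all 4 values were negative. Of these, S100A5 passed the count filter through its scramble and sh76 libraries alone, where it was higher. Its value and its part in the median are therefore description only. S100B, S100A7A and S100A7L2 had 0 counts throughout, and S100P, S100A12, S100G and S100Z at most 4.

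The squamous and stress keratin genes, which include other markers of stratified epithelium, were lower with sh78 in several members. Of 16 such genes 9 were tested, and all 9 had negative fold changes for sh78 against sh76. The median was −1.16, beside 0.00029 over all genes, and 5 were called lower, beside 1.72% of all genes. Against scramble, 4 were called lower with sh78 (median −1.21) and 0 in either direction with sh76 (median 0.16). Of all genes, 2.56% were called lower with sh78 and 3.58% in either direction with sh76, with medians of 0.0063 and 0.0064. KRT6A, a keratin of activated epithelium, had 30.8 ± 4.42 CPM with scramble, 34.4 ± 3.78 with sh76 and 6.90 ± 0.741 with sh78 (SD, n = 3). KRT15 fell to 50.1% and TGM1, the transglutaminase of the cornified envelope, to 43.2% of the scramble level with sh78 (adjusted edgeR p 0.000439 and 0.00312). KRT13 had 52, 34 and 36 counts with scramble, 62, 52 and 41 with sh76, and 8, 3 and 4 with sh78 (adjusted edgeR p 0.00114 for sh78 against scramble). It passed the count filter through its scramble and sh76 libraries alone. With sh76, 1 of the 9 passed an unadjusted p under 0.05 and DESeq2 called 0. With the block, 2 were higher and 1 lower with sh76, 7 lower with sh78 and 8 lower with sh78 than with sh76. Over all genes these shares were 9.63% and 10.7%, 10.1%, and 8.62%. KRT5 was the 1 of the 9 with a positive value for sh78 against scramble (0.26 in log2 units, adjusted edgeR p 0.698). A summed list of 8 keratinocyte markers was 37.0 to 42.6 FPKM with scramble, 40.04 to 42.1 with sh76 and 30.5 to 34.9 with sh78. In it KRT10, KRT5 and FLG lay at 13.2 to 17.5, 6.91 to 16.5 and 6.96 to 19.7 FPKM over the 9 libraries. KRT1 had 0 counts, KRT14, DSG1 and LOR 2 counts or fewer, and KRTDAP at most 0.608 FPKM. The part of these markers in the result was not tested.

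Most fused-type S100 and cornified envelope genes of the epidermal differentiation complex were below the count filter, 18 of 22. FLG, which encodes filaggrin and carries an S100-like domain, was the exception in level, at 6.96 to 19.7 FPKM over the 9 libraries. FLG, FLG2, HRNR and TCHH were tested, and edgeR called 0 of them in any comparison, beside 3.58%, 4.41% and 3.7% of all genes. At an unadjusted p under 0.05 the counts were 0, 1 and 1 in the 3 comparisons, and DESeq2 called 1, for sh78 against scramble. FLG had a log2 value of −0.93 there (adjusted edgeR p 0.054). With the block, edgeR called 1 of the 4, lower with sh78 against scramble, beside 10.1% of all genes. IVL, SPRR1A, SPRR1B and SPRR3 had 0 counts in every library.

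**Figure D5:**
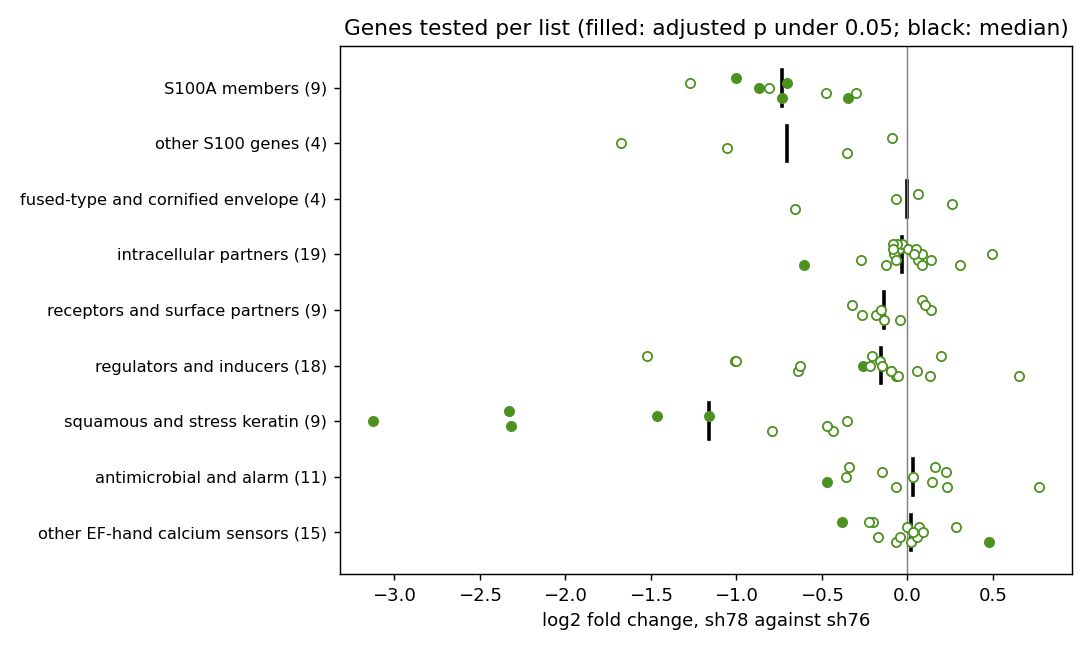
Log2 fold change of sh78 against sh76 for each tested gene of the S100A members and of 8 other lists, with filled points for an adjusted p under 0.05 and a black bar at the median. The medians lie furthest left for squamous and stress keratin genes, at −1.16, S100A members, at −0.73, and other S100 genes, at −0.70. Also left of 0 are those of regulators and inducers, at −0.15, and receptors and surface partners, at −0.14. That of intracellular partners lies at −0.029 and that of the fused-type list at −0.0024. Antimicrobial and alarm genes, at 0.031, and other EF-hand calcium sensors, at 0.023, lie right of 0.

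Of 19 partners of S100A proteins inside the cell, all tested, edgeR called 0 with sh76, 1 higher with sh78 and 1 lower with sh78 than with sh76, beside 3.58%, 4.41% and 3.7% of all genes. At an unadjusted p under 0.05 the counts were 2, 5 and 4, and DESeq2 called 0, 3 and 1. With the block 3, 5 and 5 were called, beside 20.4%, 19.9% and 18.3% of all genes. The medians were 0.057, 0.031 and −0.029. ANXA1, the partner of S100A11, was lower with sh78 than with sh76 (log2 fold change −0.61, SE 0.13, adjusted edgeR p 0.0313), a call lost without any single sh78 library or sh76 replicate 2 or 3 (adjusted p-values up to 0.106). MDM2, the ubiquitin ligase of p53, rose with sh78 by 0.28 (adjusted edgeR p 0.0327), and this was lost in 5 of the 9 fits that left out 1 library, those without a scramble library or sh78 replicate 2 or 3 (up to 0.13).

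Receptors were examined for the secreted members. Of 13 receptor and surface genes 9 were tested, and edgeR called 1 with sh76 and 0 in the other comparisons (2 at an unadjusted p under 0.05 in each of the 3, and 1, 0 and 0 by DESeq2). Of all genes edgeR called 3.58%, 4.41% and 3.7% in the 3 comparisons. The medians of the 9 genes were 0.047, −0.035 and −0.14. With the block 3, 2 and 5 were called, beside 20.4%, 19.9% and 18.3% of all genes. TLR4, a receptor of S100A8 and S100A9, had at most 1 count in a library, and its co-receptor LY96 at most 5. MYD88, the adaptor below TLR4, rose with sh76 by 0.37 (SE 0.085, adjusted edgeR p 0.0269), and the call was lost without any single sh76 library or scramble replicate 2 or 3 (up to 0.128). AGER, the receptor RAGE, was not called with sh76 (0.36 in log2 units) or sh78 (0.31), at adjusted edgeR p-values of 0.548 and 0.636.

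Among 18 tested regulators and inducers of S100A7, S100A8 and S100A9, 1 was called higher and 1 lower with sh76, 0 and 1 with sh78, and 0 and 2 between the hairpins. Of all genes 1.43% were called higher and 2.16% lower with sh76, 1.85% and 2.56% with sh78, and 1.97% and 1.72% between the hairpins. The medians of the 18 genes were 0.057, −0.13 and −0.15. With the block the counts of these genes called were 3 and 2, 1 and 3, and 2 and 5. The block called 9.63% of all genes higher and 10.7% lower with sh76, 9.79% and 10.1% with sh78, and 9.69% and 8.62% between the hairpins. FOS, a subunit of AP-1, had 7.78, 7.86 and 7.06 CPM with scramble, 12.3, 13.04 and 11.5 CPM with sh76, and 6.09, 5.50 and 6.69 CPM with sh78. It rose with sh76 by 0.70 (SE 0.14, adjusted edgeR p 0.011), a call lost without scramble replicate 3 or sh76 replicate 2 (up to 0.067), and it was lower with sh78 than with sh76 by −1.01 (SE 0.14, adjusted edgeR p 0.00106). CEBPB, a transcription factor of inflammatory genes, fell by 0.29 with sh76 and by 0.39 with sh78 on the log2 scale (adjusted edgeR p 0.0351 and 0.00618). Its sh76 call was lost without scramble replicate 1 or 3 or sh76 replicate 1 or 2 (up to 0.177). HIF1A was lower with sh78 than with sh76 by −0.26 (adjusted edgeR p 0.0221), lost without any single sh76 or sh78 library (up to 0.0867). IL1B and TNF were below the count filter.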

How the data were processed

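Poly-A RNA of 9 OVCAR3 libraries, 3 per group, was sequenced without strand, per the labels' protocols. The submitters' processing notes name HISAT2 2.0.5, featureCounts 1.5.0-p3 and hg38, and counting settings are not given in the sources used here. The authors deposited raw counts per gene (14652965 to 21327562 per library) and FPKM values, which equal the counts per gene length and per a library size of 98.1% to 102.97% of the total. All 58735 identifiers and positions matched GENCODE 29 (GRCh38). The test was edgeR's (version 4.0.16, R 4.3.3): filterByExpr (minimum count 10, minimum total 15) kept 17023 genes, TMM scaling, robust glmQLFit with 1 coefficient per group over all 9 libraries, and 3 contrasts (sh76 against scramble, sh78 against scramble, sh78 against sh76). The SE is the absolute log2 fold change over the root of F. Same-numbered libraries deviated together from their group means in all 9 pairs (r 0.14 to 0.39, against −0.31 to 0.064 in 18 other pairs), so a fit with the number as a block was read beside the main one. Deviations within a group sum to 0, so positive values in the same-numbered pairs push the other pairs below 0. The 18 pairs are therefore no independent baseline. Replicates of a group differed by a chi-square per degree of freedom of 5.32 to 12.2, so none duplicated another. DESeq2 1.42.0 and limma 3.58.1 on log2(FPKM + 1) and log2(FPKM + 0.1) served as alternatives, with another scaling, no count filter, the 2 groups alone and each library left out. The members and gene lists were chosen with earlier results of these data known. Of each list, at most 4 genes called in any contrast are named, in order of their smallest adjusted p, and for each called member the 3 genes most alike. Named outside this rule, after their values were seen, are AGER, TLR4, LY96, S100A5, FLG, IL1B, TNF, KRT5, KRT10, CD14 and genes at or near 0 counts.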

Additional observations from a re-analysis of the deposited data

Results flagged for a closer look

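The results below are those in which the effects of the 2 hairpins differed by the direct edgeR test of sh78 against sh76. S100A9 was lower with sh78 by a log2 fold change of −1.002, S100A6 by −0.87, S100A2 by −0.73, S100A16 by −0.70 and S100A10 by −0.35. For S100A6, S100A9 and S100A16 the call was kept in all 9 fits that left out 1 library. S100A2 kept it in 5 and S100A10 in 4 of them. S100A6 was the member with called changes of opposite sign against scramble, 0.44 with sh76 and −0.43 with sh78. With 3 libraries per group, single outlying libraries were not looked for.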

How the results depend on the processing

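Over 27 fold changes (9 members in 3 comparisons), 181 of 216 values under alternatives other than leaving out 1 library kept their direction and their side of the threshold, 5 lost the call, 26 gained it and 4 turned sign. The replicate block called 3467 genes for sh76, 3388 for sh78 and 3117 between the hairpins, with 5, 6 and 8 members. It changed the calls of S100A4, S100A8, S100A9, S100A10, S100A11 and S100A14 given above and of no other member. Without the count filter 1149, 1212 and 1125 genes and 5, 4 and 8 members were called. The libraries numbered 2 and 3 alone, chosen after seeing the data, gave 861 genes and 4 members for sh76, and 885 genes and 5 members for sh78. Leaving out 1 library gave 237 to 655, 418 to 810 and 273 to 780 genes, and 3 to 4, 2 to 4 and 3 to 7 members. The values that turned sign were not called. S100A14 with sh76 was 0.0029 with the block, 0.0036 on log2(FPKM + 1) and 0.0039 on log2(FPKM + 0.1), and S100A8 with sh78 was 0.52 in the libraries numbered 2 and 3. With 1 library left out, the sh76 fold changes ran from −0.037 to 0.19 for S100A4, −0.21 to 0.19 for S100A14 and −0.0054 to 0.13 for S100A16. Those with sh78 ran from −0.19 to 0.26 for S100A8 and −0.16 to 0.019 for S100A10. The cause was not tested. Depth limits S100A8, with 11 to 66 counts per library, and S100A7.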

Other observations

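Of 15 other EF-hand calcium sensors tested, 11 had negative fold changes with sh76 and 14 with sh78, with medians of −0.11 and −0.15, and 2 were called lower with each hairpin and 0 higher (6 and 7 in either direction at an unadjusted p under 0.05, 4 and 2 by DESeq2). With the block, 7 were lower and 0 higher with each, beside 10.7% of all genes lower with sh76 and 10.1% with sh78. EFHD2, an actin-linked EF-hand protein, fell with sh76 by 0.50 on the log2 scale (SE 0.062, adjusted edgeR p 0.000615). It was higher with sh78 than with sh76 by 0.47 (adjusted edgeR p 0.000824), where all 9 tested S100A members had negative values. In that comparison 8 of the 15 sensors had positive and 7 negative values. CAPN2 was called lower there (log2 fold change −0.38, adjusted edgeR p 0.0498), a call lost in 6 of the 9 fits that left out 1 library (up to 0.174). SRI fell with sh76 by 0.36 and CAPN2 with sh78 by 0.38 (adjusted edgeR p 0.0385 and 0.0466). The SRI call was lost without any single scramble library, sh76 replicate 2 or 3 or sh78 replicate 2 (up to 0.149), and the CAPN2 call without any single library other than sh76 replicate 1 (up to 0.164). RCN1, a reticulocalbin of the endoplasmic reticulum, fell with sh78 by 0.41 (adjusted edgeR p 0.00361).

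Of 11 antimicrobial and alarm genes tested, SLPI, the secretory leukocyte protease inhibitor, was the 1 gene called by edgeR without the block. It was called lower with sh78 against scramble and against sh76, beside 2.56% and 1.72% of all genes. With the block, 2 of the 11 were higher and 1 lower with sh76, 3 higher and 2 lower with sh78, and 2 higher and 1 lower with sh78 than with sh76. In either direction the block called 20.4%, 19.9% and 18.3% of all genes. The limma fit on log2(FPKM + 0.1) called 2 for sh78 against scramble. SLPI had 241 ± 13.03 CPM with scramble, 219 ± 11.8 with sh76 and 158 ± 2.47 with sh78 (SD, n = 3). It fell with sh78 by 0.61 (SE 0.063, adjusted edgeR p 0.000125). Genes around the S100A cluster, from 500 kb before S100A10 to 500 kb after S100A13, were counted after the members' values were seen. Of 37 tested genes there that are not S100 genes, 1 was called higher with sh76, 0 were called with sh78 and 1 was lower with sh78 than with sh76. Of all genes 3.58%, 4.41% and 3.7% were called in either direction. The medians were 0.17, 0.10 and −0.060, beside 0.0064, 0.0063 and 0.00029 over all genes.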
